A study of Mus musculus with 6 samples.

Results

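Cytosolic ribosomal proteins were followed at the mRNA level in single-cell RNA-Seq libraries of mouse islets. Members were the genes whose symbol is Rpl or Rps followed by a number and, in some, by the ending a, x, l, l1, or al, together with *Rplp0*, *Rplp1*, *Rplp2*, and *Rpsa*. This rule took 83 of the 32285 genes in the files, 31 of the small subunit and 52 of the large subunit, and the latter included the 3 proteins of the P stalk. Of the members, 7 were paralogs of a broadly used protein, such as *Rpl22l1* and *Rps27l*. The rule used symbols and no measured value. The ribosomal proteins *Rps3a1*, *Fau*, and *Rack1* have other kinds of symbol and were followed beside the members.

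The libraries came from islets of 3 β14-3-3ζ–KO mice and 3 WT mice, aged 12 to 14 weeks and of the C57/BL6 strain. Each library was counted as 1 mouse, since neither the labels nor the methods say that mice were pooled. In KO mice, the *Ins1*-CreThor knock-in deleted floxed exon 4 of *Ywhaz*, the 14-3-3ζ gene, in β cells, and per the study's methods the WT littermates carried the same Cre. Values are counts of unique molecular identifiers (UMIs), each standing for 1 captured poly(A) RNA, and a level in a library is a share of its UMIs. Values of single libraries are given in the order of their numbers, from 1 to 3 within each genotype. A share of summed UMIs shows neither the number of cells nor the amount of RNA per cell, and it can move because other genes moved.

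A ribosome joins a small subunit, which reads the mRNA, and a large subunit, which forms the peptide bonds, and the P stalk on the large subunit recruits the factors that drive elongation. Each ribosome holds about equal numbers of nearly all its proteins, and their mRNAs are among the most abundant in growing cells. Many of these mRNAs start with a C and a run of pyrimidines, the terminal oligopyrimidine (TOP) tract, through which mTORC1 and LARP1 set their translation. In islets, endocrine cells devote a large part of their mRNA to hormones.

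The start sites of members were read from RefSeq (GRCm38.p6), in which 63 of the 83 members had at least 1 entry. A C followed by at least 4 further C or T, on the sense strand and between 15 bases before and 20 bases after the start, was found in 49 of the 75 member entries (65.3%) and in 13452 of all 32851 entries (40.95%). The letters CCGGAAG, the core of many ETS factor sites, lay on either strand of the 300-base window around the start in 34.7% of member entries and in 8.86% of all entries. TATAAA was found in 9.33% and 13.6%. These are matches of letters in a window and not shown binding sites. The windows of 8 members picked as examples are given from 10 bases before the start to the 20th base after it. They read 5′ to 3′, with the longest C-led pyrimidine run in capitals and any shorter run left in lowercase. *Rps6* (the S6 kinase substrate), *Rplp2* (P stalk), and *Rpl28* (large subunit) show the tract. The other 5 had log2 fold changes below 0 between genotypes in every cell type tested, and *Rps28* and *Rpl10* among them hold no such run in this window. *Rpl41*, also below 0 in every type, holds none either. Neither do *Rpl13*, *Rps16*, *Rps19*, and *Rpl5*, which were above 0 in gene-rich β cell–like cells (defined below).
*Rps6*, chr4:86857348-86857377, minus strand: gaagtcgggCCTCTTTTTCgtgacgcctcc
*Rplp2*, chr7:141447641-141447670, plus strand: cagcgtCTTCCTTTCgccgccggacgccgc
*Rpl28*, chr7:4792955-4792984, plus strand: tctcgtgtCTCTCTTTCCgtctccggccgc
*Rpl35*, chr2:39005112-39005141, minus strand: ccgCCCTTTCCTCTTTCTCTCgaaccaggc
*Rps27*, chr3:90213629-90213658, minus strand: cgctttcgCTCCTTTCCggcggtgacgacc
*Rpl38*, chr11:114668570-114668599, plus strand: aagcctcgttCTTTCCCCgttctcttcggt
*Rps28*, chr17:33824543-33824572, minus strand: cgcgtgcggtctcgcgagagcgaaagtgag
*Rpl10*, chrX:74270806-74270835, plus strand: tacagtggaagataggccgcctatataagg

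The libraries held 74083947 to 98294915 UMIs in 43445 barcodes, of which 25261 were kept as cells. Cells fell into 28 clusters built without ribosomal protein genes, insulin genes, and *Ywhaz*, and a cluster was called, for example, β cell–like where its markers allowed. β cell–like clusters were divided by genes detected at equal depth into gene-rich cells (5322) and gene-poor cells (628). The gene-poor cluster passed the naming rule with 3 of the 10 β cell markers and the gene-rich clusters with 8 and 9. A *Ppy*-led cluster of 249 cells is called by its leading gene. *Ywhaz* in all gene-rich β cell–like cells stood at 164, 174, and 173 CPM (the gene's UMIs scaled to a common library total) in WT and at 19.4, 16.5, and 18.9 CPM in KO, although the 3′ counts do not read exon 4 itself. In α cell–like cells it stood at 99.0, 142, and 129 CPM in WT and at 99.9, 125, and 122 CPM in KO. B cell–like and T cell–like cells were uneven, with 1202 and 1589 B cell–like cells in WT library 2 and KO library 2 and 13 to 202 in the others. Between 7 and 27 barcodes were shared by a pair of libraries.

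Ribosomal protein mRNA made up very different parts of the mRNA of islet cell types. B cell–like cells and T cell–like cells stood at the top, with 26.7% ± 3.01 and 26.6% ± 3.52 of their UMIs (SD, n = 6 libraries). Ductal-like cells followed with 21.0% ± 2.11 and stellate cell–like cells with 16.8% ± 1.21. Dendritic-like cells had 12.7% ± 3.38, but rested on 2 and 4 cells in 2 of the libraries. In endocrine cells the share was lowest, at 9.32% ± 0.678 in α cell–like cells, 7.57% ± 0.149 in δ cell–like cells, 5.83% ± 0.297 in *Ppy*-led cells, 5.37% ± 0.267 in gene-rich β cell–like cells, and 4.70% ± 0.219 in gene-poor β cell–like cells. Macrophage-like cells at 8.83% ± 0.522 and endothelial-like cells at 8.63% ± 0.672 lay between α and δ cell–like cells.

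Some neighbors in this order did not differ beyond their spread. B cell–like cells exceeded T cell–like cells in 2 of 6 libraries, and macrophage-like cells exceeded endothelial-like cells in 4 of 6. α cell–like cells were above gene-rich β cell–like cells in 6 of 6 libraries, by 3.16 to 5.46 percentage points. Gene-rich β cell–like cells exceeded gene-poor ones in 6 of 6, by 0.494 to 1.09 points. The ranges of endothelial-like and δ cell–like cells did not overlap. Clusters were built from these same cells, so these orders are a description. A cluster led by immunoglobulin genes, present in 3 libraries and with 3 cells in WT library 1, had 11.4% ± 1.49 (SD, n = 3 libraries), below B cell–like cells in each of them. Dividing cells ranged from 5.80% to 25.9%, and hormone genes held 43.0% to 55.0% of their UMIs in 4 libraries but 3.22% and 5.92% in WT library 2 and KO library 2, where the member share was high.

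The 7 hormone genes *Ins1*, *Ins2*, *Iapp*, *Gcg*, *Sst*, *Ppy*, and *Pyy* took up a large part of endocrine UMIs, and the order changed when they were left out of the total. Gene-poor β cell–like cells then stood at 16.4% ± 0.907, above gene-rich β cell–like cells at 9.53% ± 0.773 (SD, n = 6 libraries). They were above them in 6 of 6 libraries, by 4.86 to 8.78 points. In gene-poor cells, hormone genes held 68.4% to 74.5% of UMIs, against 41.7% to 47.8% in gene-rich cells. α cell–like cells reached 13.0% ± 1.04 and *Ppy*-led cells 11.4% ± 0.596, and δ cell–like cells, at 10.1% ± 0.264, exceeded gene-rich β cell–like cells in 5 of 6 libraries. Without hormones, gene-rich β cell–like, macrophage-like (9.31% ± 0.738), and endothelial-like cells (9.23% ± 1.07) had the lowest shares and overlapped.

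**Figure D1:**
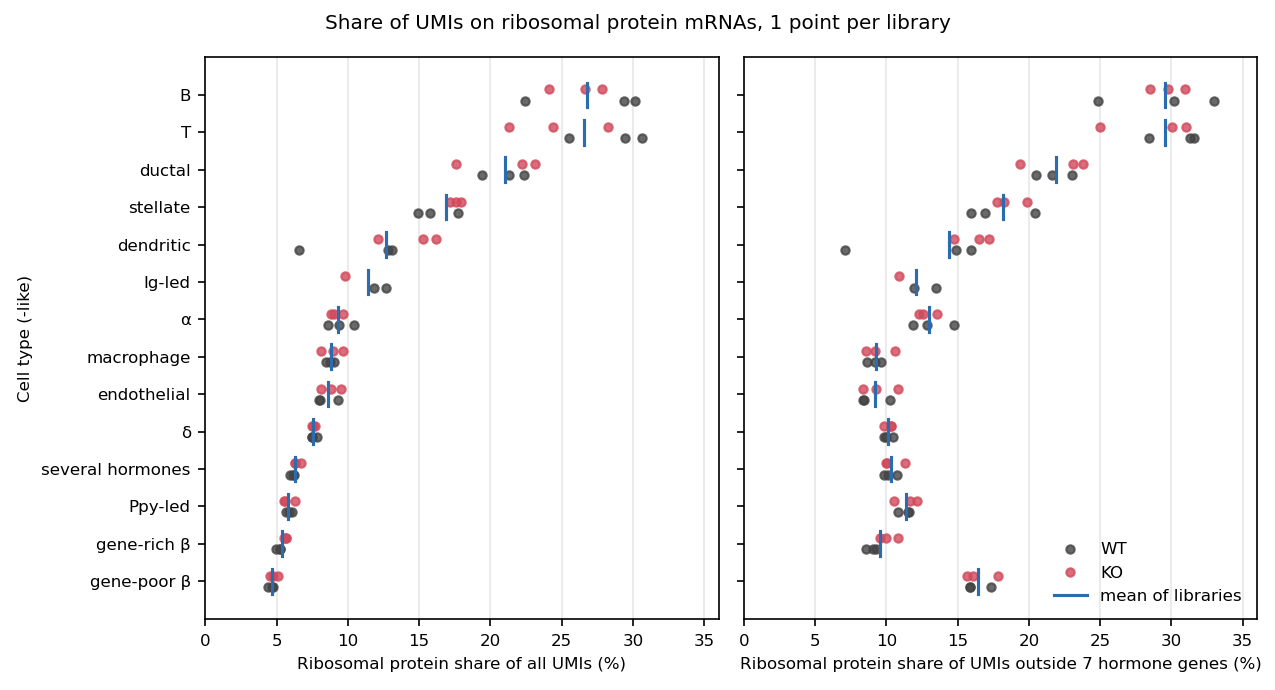
Share of UMIs on the 83 members (x axis, %) in each cell type (y axis), out of all UMIs on the left and out of UMIs outside 7 hormone genes on the right, with 1 point per WT (gray) or KO (red) library and a bar at the mean of the libraries. Gene-poor β cell–like cells move from the lowest place at 4.70% to 16.4% once hormones are left out, while B and T cell–like cells stay at the top in both panels.

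Hormone UMIs were also counted in cells that make no hormone, to an extent that differed between libraries. Hormone genes held 19.1% of the UMIs of B cell–like cells in KO library 2 and 2.74% in WT library 1. The member share of B cell–like cells was 24.1% in KO library 2 and 29.4% in WT library 1, and outside hormone genes these became 29.8% and 30.2%. Barcodes over the mitochondrial limit, which were left out, had member shares of 3.66% to 5.98%.

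Beside this common level, the members differed in how they were spread over cell types. To describe this, each member's part of all member UMIs was taken in the 12 groups with at least 5 cells in every library, including the mixed dividing cells. Variation was widest for *Rps27l*, a paralog of *Rps27* known as a p53 target. It held 0.501% of member UMIs in macrophage-like cells (range 0.443% to 0.544% over 6 libraries) and 0.0732% in B cell–like cells (0.0466% to 0.0961%). *Rps27* itself was highest in T cell–like cells, with 2.03% (1.61% to 2.52%), and lowest in ductal-like cells, with 0.865% (0.713% to 1.04%). *Rpl7l1*, a paralog of *Rpl7* with a role in ribosome assembly, held 0.123% in endothelial-like cells (0.106% to 0.144%), and this range lay above every library of the other groups. Its lowest part was 0.0143% in T cell–like cells. Outside the 12 groups, *Rps27l* held 0.916% in dendritic-like cells (0.614% to 1.48%).

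*Rpl22l1*, the paralog of the RNA-binding protein *Rpl22*, was highest in *Ppy*-led and δ cell–like cells. It held 0.561% in *Ppy*-led cells (0.503% to 0.606%) and 0.542% in δ cell–like cells. In B cell–like cells it held 0.183% (0.105% to 0.231%). *Rpl22* held 0.735% in macrophage-like cells and 0.437% in α cell–like cells. *Rpl36al*, the paralog of *Rpl36a*, held 0.839% in δ cell–like cells (0.767% to 0.916%) and 0.301% in B cell–like cells. *Rpl41*, which encodes the smallest ribosomal protein, held 4.31% in gene-rich β cell–like cells (3.95% to 4.87%) and 1.44% in T cell–like cells (1.18% to 1.73%). *Rps2* held 2.76% in ductal-like cells (2.53% to 3.03%) and 0.850% in T cell–like cells. *Rpl10*, which sits near the tRNA sites of the large subunit, held 1.27% in gene-poor β cell–like cells (0.786% to 1.60%) and 0.457% in T cell–like cells. Several members have many pseudogenes, and UMIs from near-identical copies could have been lost or shifted in counting.

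**Figure D2:**
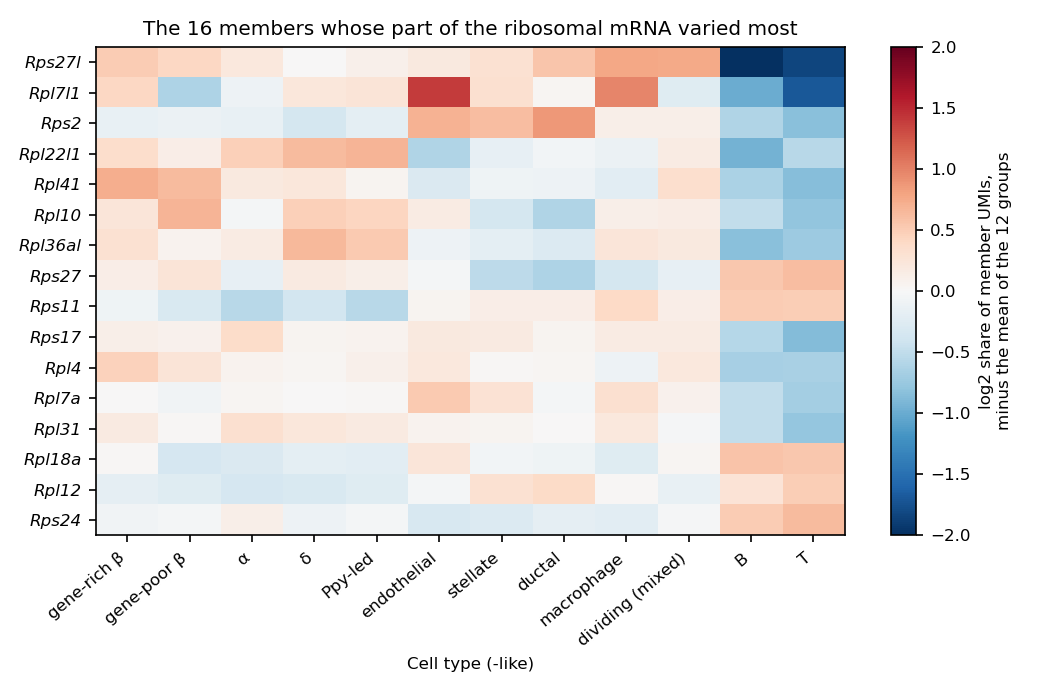
Each row is 1 of the 16 members with the widest variation and each column 1 of 12 groups of cells, and color gives the log2 of the member's share of member UMIs minus its mean over the groups. *Rps27l* is lowest in B and T cell–like cells, *Rpl7l1* highest in endothelial-like cells, and *Rpl41* highest in gene-rich β cell–like cells.

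The paralogs used mainly in other tissues were nearly absent. *Rpl10l*, which is used in testis, had no UMI in the 25261 kept cells. *Rpl3l*, the muscle form of *Rpl3*, had 18 UMIs in 16 cells, and *Rpl39l* had 69 UMIs in 34 cells. These 3 members failed the filter on low counts, and the other 80 were tested in every type compared.

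The genes outside the list whose level was most like the member share, over 12 groups and 6 libraries (72 points that share libraries and depth), were *Rack1* (Pearson's r = 0.976), *Rps3a1* (r = 0.975), *Tmsb10* (r = 0.960), *Eef1b2* (r = 0.960), and *Eif3h* (r = 0.959), of 3466 genes compared. The former pair encode ribosomal proteins that the symbol rule did not take, *Eef1b2* encodes an elongation factor subunit, and *Eif3h* an initiation factor subunit. *Tmsb10* encodes an actin-binding peptide.

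The comparison of genotypes asked whether β cells that lack 14-3-3ζ differ in ribosomal protein mRNA. The study set aside KO β cells in which *Ywhaz* was not fully deleted, and here β cell–like cells of KO mice entered the comparison only where they held no *Ywhaz* UMI. In gene-rich β cell–like cells, the members took 4.99%, 5.20%, and 5.23% of UMIs in WT and 5.38%, 5.63%, and 5.58% in KO. Each KO library lay above each WT library. The means were 5.14% ± 0.132 and 5.53% ± 0.131 (SD, n = 3 mice each), a difference of 0.393 percentage points (2-sided exact permutation test p = 0.1, the smallest value that 3 against 3 allows). Adjusted over the 9 types by Benjamini-Hochberg, this exact p was 0.9. Outside hormone genes, the WT mean was 8.96% ± 0.364 and the KO mean 9.99% ± 0.745, again without overlap.

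Other measures moved with the libraries too. The median number of UMIs per cell was 39362, 28126, and 32030 in WT and 27398, 21974.5, and 28820.5 in these KO cells, so that depth was lower in KO with some overlap. Markers of acinar cells summed to 20.8, 4.96, and 20.2 CPM in WT and 8.83, 55.4, and 27.5 CPM in KO, and their part in the result was not tested. Hormone genes held 41.7%, 43.8%, and 42.3% of UMIs in WT and 42.3%, 47.9%, and 43.3% in KO. In cells of 20000 to 40000 UMIs only, the member share was 4.79%, 5.20%, and 5.28% in WT and 5.52%, 5.52%, and 5.68% in KO, still without overlap. Depth was not made equal by this, with medians of 31035, 28349, and 29461 UMIs in WT and 28351, 25626, and 28481.5 in KO. WT cells without a *Ywhaz* UMI (11, 65, and 50 cells) were shallow and had member shares of 4.01%, 4.00%, and 4.72%. With the selection made alike in both genotypes, the KO minus WT difference was 0.502 points in cells with a *Ywhaz* UMI and 1.29 points in cells without. Within the larger of 2 gene-rich clusters the difference was 0.385 points and the groups overlapped (exact permutation p = 0.2), and within the smaller it was 0.497 points without overlap. These divisions were chosen after seeing the data.

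In the other 8 types tested the groups overlapped and exact permutation p ranged from 0.3 to 0.9. Clusters rich in several hormones, which entered no test, had 6.13% ± 0.150 in WT and 6.41% ± 0.234 in KO (SD, n = 3 mice each), without overlap. Outside hormone genes, their values were 10.2% ± 0.485 and 10.4% ± 0.724, with overlap. In endothelial-like cells, where same-numbered libraries were read as pairs too, KO lay above WT in 3 of 3 pairs, by 0.116, 0.179, and 0.811 points (exact sign-flip p = 0.25, the smallest value that 3 pairs allow). Of the other types read as pairs, gene-poor β cell–like cells differed by 0.324, −0.159, and 0.234 points (exact sign-flip p = 0.5). The pairs of α cell–like cells differed by −0.781, 0.225, and −0.339 points (exact sign-flip p = 0.5). Gene-poor β cell–like cells had 4.43%, 4.70%, and 4.73% in WT and 4.75%, 4.54%, and 4.97% in KO. α cell–like cells had 10.4%, 8.57%, and 9.39% in WT and 9.66%, 8.80%, and 9.06% in KO, the opposite direction on average. δ cell–like cells differed by −0.0226 points and *Ppy*-led cells by −0.0579 points. The largest difference was in stellate cell–like cells, which rested on 20 to 100 cells per library, with 16.1% ± 1.41 in WT and 17.6% ± 0.388 in KO (SD, n = 3 mice each).

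Gene by gene, no member passed the test in any of the 9 types (edgeR quasi-likelihood FDR under 0.05, with a log2 fold change past 0.1 in either direction). In gene-rich β cell–like cells this was 0 of 80 members, where 0.0104% of the 9599 genes tested were called, namely *Ywhaz* alone, which was at 0 in KO because cells with its UMI had been left out. The lowest FDR of a member was 0.912. By DESeq2, 0 members were called, where 0.0521% of genes were. With same-numbered libraries blocked, 0 members and 23 genes (0.24%) were called, and the lowest FDR of a member was 0.0546. At an unadjusted p under 0.05, edgeR gave 39 members, where it gave 4.8% of all genes, and 38 of the 39 were higher in KO (2.96% of all genes).

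The members nevertheless lay to one side in gene-rich β cell–like cells. Of the 80, 73 had a log2 fold change above 0, and the median was 0.23, against −0.00 over all genes, of which 49.5% were above 0. For 50 members every KO library exceeded every WT library, and for 0 members the reverse was found, where all genes gave 5.77% and 5.26%. Members share their libraries and are not independent of each other. Without KO library 2 the median fell to 0.14. Small-subunit members had a median of 0.26, with 28 of 31 above 0, and large-subunit members one of 0.22, with 45 of 49 above 0.

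*Rpl13*, a large-subunit protein (chr8:123102350-123105244, plus strand), stood at 1121, 1152, and 1213 CPM (TMM-normalized) in WT and at 1334, 1652, and 1399 CPM in KO. The KO libraries lay above all WT libraries, with KO library 2 highest. Its log2 fold change was 0.33 (SE 0.105, edgeR FDR 0.912). *Rpl7*, *Rpl29*, and *Rps16* had log2 fold changes of 0.31 (SE 0.101), 0.38 (SE 0.124), and 0.30 (SE 0.0973), and in each the groups did not overlap. *Rpl22l1* had the largest value of the members, 0.43 (SE 0.169), with 172, 225, and 217 CPM in WT and 229, 352, and 248 CPM in KO.

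Members with known roles outside the ribosome's core lay in the same range, and none was called. *Rps6*, the substrate of S6 kinase, was at 577, 552, and 584 CPM in WT and 629, 704, and 645 CPM in KO, with a log2 fold change of 0.21 (SE 0.0818). *Rpl5* (0.22, SE 0.0855) and *Rpl11* (0.28, SE 0.0977), which bind MDM2 when ribosome assembly fails, and *Rps19* (0.29, SE 0.102), mutated in Diamond-Blackfan anemia, had no overlap between groups. Of the P stalk, *Rplp0* had 0.21 (SE 0.0939) without overlap, and *Rplp1* (0.21, SE 0.103) and *Rplp2* (0.14, SE 0.0917) overlapped. *Rpsa*, the laminin receptor precursor, had 0.15 (SE 0.0904) without overlap.

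The 4 tested paralogs were all above 0, with a median of 0.14. *Rpl22* had 0.24 (SE 0.0977) beside its paralog's 0.43, *Rpl36a* 0.13 (SE 0.0913) beside 0.16 (SE 0.126) in *Rpl36al*, and *Rpl7l1* 0.12 (SE 0.0736). *Rps27l* had 0.09 (SE 0.109) and *Rps27* −0.08 (SE 0.0999). *Rpl3*, *Rps4x*, and *Rpl39* had 0.29 (SE 0.111), 0.28 (SE 0.0968), and 0.19 (SE 0.124).

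Genes of the translation apparatus outside the list were set beside the members. Of the ribosomal proteins missed by the rule, *Rps3a1* (0.30, SE 0.102), *Rack1* (0.24, SE 0.0809), and *Fau* (0.18, SE 0.0994) lay with the members. Of 21 tested genes of other TOP mRNAs, 19 were above 0 (49.5% of all genes), with a median of 0.16. In 11 every KO library exceeded every WT library (5.77% of all genes). Examples were the elongation factor subunits *Eef1d* (0.25, SE 0.0639) and *Eef1b2* (0.26, SE 0.0925), and *Tpt1* (0.25, SE 0.103). *Hnrnpa1*, an RNA-binding protein, lay on the other side at −0.37 (SE 0.131), with overlap. Of 36 ribosome biogenesis genes, 18 were above 0 with a median of −0.00, and of 11 regulators such as *Mtor* and *Larp1*, 4 were above 0 with a median of −0.04. No gene of these lists was called, and with the replicate block *Hnrnpa1* was (−0.36, FDR 0.0418). In the other types, the TOP genes above 0 ran from 5 of 21 in α cell–like cells to 20 of 22 in stellate cell–like cells. B cell–like cells had 9 of 22.

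In the other types the medians of the 80 members were smaller: 0.07 in gene-poor β cell–like cells, −0.01 in α cell–like, 0.06 in δ cell–like, 0.07 in *Ppy*-led, 0.13 in endothelial-like, 0.17 in stellate cell–like, 0.16 in macrophage-like, and 0.05 in B cell–like cells. Members above 0 numbered 56 in gene-poor β cell–like cells (50.9% of all genes), 32 in α cell–like (49.5%), 62 in δ cell–like (49.8%), and 61 in *Ppy*-led cells (50%). They numbered 64 in endothelial-like (49.4%), 68 in stellate cell–like (50.6%), 65 in macrophage-like (50.1%), and 59 in B cell–like cells (51%). The median of all genes lay between −0.00 and 0.01 in these types. Single libraries carried several of these values. In α cell–like cells the median ran from −0.12 without WT library 2 (5 members above 0) to 0.11 without WT library 1 (65 above 0), with 18 above 0 without KO library 1 and 50 without KO library 2. In gene-poor β cell–like cells it ran from −0.04 without KO library 1 (35 above 0) to 0.17 without WT library 1 (66 above 0), and in B cell–like cells from −0.06 without WT library 3 (17 above 0) to 0.13 without WT library 2 (70 above 0). Members with every KO library above every WT library numbered 15 in δ cell–like cells (4.18% of all genes), 14 in macrophage-like cells (5.24%), and 11 in stellate cell–like cells (3.38%). α cell–like cells had 0 such members (4.67%) and gene-poor β cell–like cells 1 (5.79%).

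Whether the difference in gene-rich β cell–like cells was larger than in another type was tested by an interaction of genotype and cell type (limma-voom, each library as a random block, 11464 genes). No member was called in any of 4 terms, where 0.00872% of genes were called against α, δ, and endothelial-like cells and 0.0174% against macrophage-like cells. The term was above 0 in 80 of 80 members against α cell–like cells, with a median of 0.24, and against δ cell–like cells in 79 of 80, with a median of 0.18. It was above 0 in 72 members against endothelial-like cells (median 0.10) and in 62 against macrophage-like cells (median 0.060). Over all 11464 genes, the median term was 0.0046 against α and −0.0026 against δ cell–like cells. It was 0.0029 against endothelial-like and −0.0060 against macrophage-like cells. These 4 comparisons share the β cell–like sums. Gene-poor β, B, *Ppy*-led, and stellate types had no such term. Whether the difference was larger than in those types was not tested. The lowest member p belonged to *Rpl7* against α cell–like cells, 0.34 (SE 0.151, limma FDR 1.00).

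**Figure D3:**
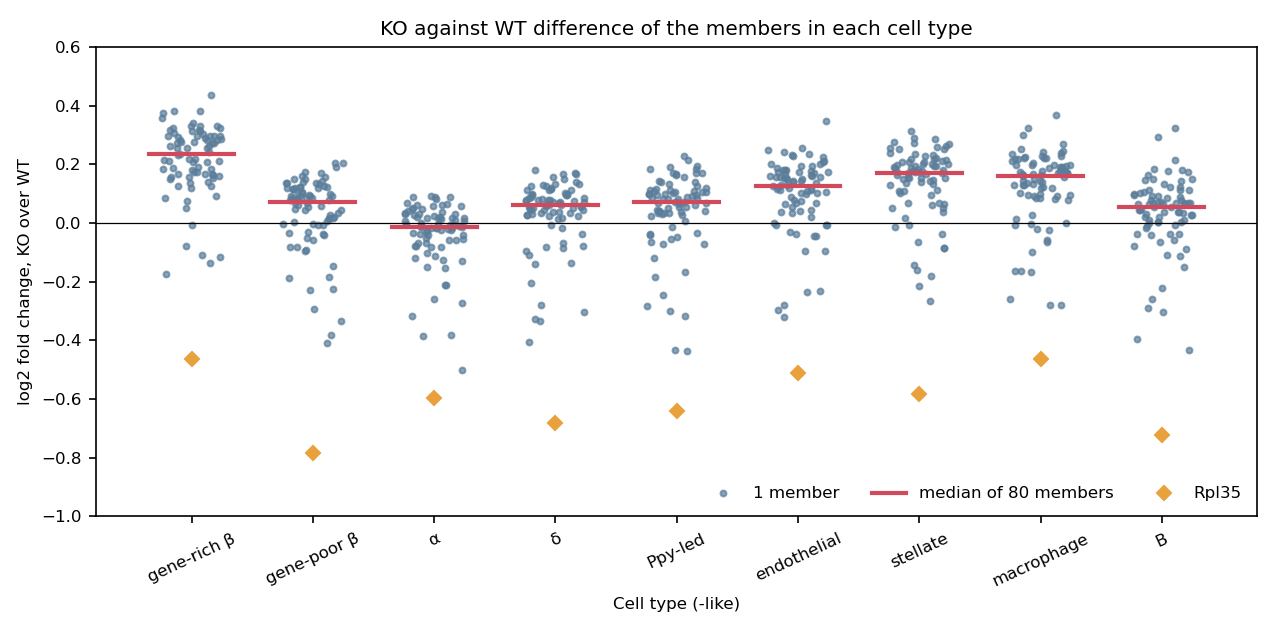
Each point is 1 of the 80 tested members, with its log2 fold change of KO over WT (y axis) in each of 9 cell types (x axis), bars mark the median of the members, and diamonds mark *Rpl35*. The median is 0.23 in gene-rich β cell–like cells and −0.01 in α cell–like cells, and *Rpl35* is the lowest member in each type.

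*Rpl35*, a large-subunit protein near the peptide exit (ENSMUSG00000062997, GRCm38, GENCODE vM21, chr2:39001580-39005624, minus strand), departed from the other members. Its log2 fold change lay between −0.78 and −0.46 in all 9 types. In gene-rich β cell–like cells it stood at 178, 242, and 205 CPM in WT and at 151, 119, and 183 CPM in KO. KO library 3 lay above WT library 1, so the groups overlapped. The log2 fold change was −0.46 (SE 0.163, edgeR FDR 0.912).

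In gene-poor β cell–like cells *Rpl35* stood at 184, 209, and 186 CPM in WT and 126, 65.4, and 131 CPM in KO. The groups did not overlap, where 7.41% of genes had every KO library below every WT library. The log2 fold change was −0.78 (SE 0.194, edgeR FDR 0.160), so *Rpl35* was not called. With same-numbered libraries blocked it was called (−0.79, FDR 0.00242), where that fit called 0.818% of genes. The sample titles give replicate numbers and no pairing, and the pairing was read from these same counts. In α cell–like cells the values were 369, 407, and 364 CPM in WT and 274, 184, and 298 CPM in KO, without overlap (5.09% of genes), with a log2 fold change of −0.60 (SE 0.146, FDR 1.00).

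In macrophage-like cells *Rpl35* stood at 428, 535, and 468 CPM in WT and 385, 289, and 367 CPM in KO, also without overlap (5.16% of genes), and the log2 fold change was −0.46 (SE 0.149). In the other 5 types the groups overlapped. In 9 of 9 types, which share their libraries, WT library 2 was the highest and KO library 2 the lowest of the 6. On CPM without TMM scaling, every KO library lay below every WT library in 5 of 9 types. In the unnamed clusters, which entered no comparison, *Rpl35* stood at 359, 348, and 310 CPM of all UMIs in WT and 214, 179, and 228 CPM in KO, without overlap. In barcodes over the mitochondrial limit it stood at 125, 213, and 148 CPM in WT and 104, 111, and 135 CPM in KO, with overlap. The part of library preparation in these differences was not tested.

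Beside *Rpl35*, *Rps29*, *Rps28*, *Rpl10*, *Rpl38*, *Rps27*, and *Rpl41* had a log2 fold change below 0 in all 9 types, and 23 members were above 0 in all 9. In gene-rich β cell–like cells *Rps29* stood at 767, 1197, and 877 CPM in WT and 801, 821, and 893 CPM in KO, and WT library 2 alone was high. *Rps28* stood at 644, 982, and 707 CPM in WT and 674, 754, and 725 CPM in KO. Their log2 fold changes were −0.17 (SE 0.156) and −0.12 (SE 0.152), and those of *Rpl38*, *Rpl10*, and *Rpl41* were −0.14 (SE 0.150), −0.11 (SE 0.124), and −0.01 (SE 0.110). WT library 2 was the highest library for *Rps28*, *Rps29*, and *Rpl38* in 9 of 9 types, for *Rps27* and *Rpl41* in 8, and for *Rpl10* in 3. Without WT library 2, 78 of 80 members were above 0 in gene-rich β cell–like cells, with *Rps28* at 0.082, *Rps29* at 0.025, *Rpl38* at 0.061, *Rps27* at 0.0078, and *Rpl41* at 0.060, and *Rpl35* (−0.35) and *Rpl10* (−0.10) stayed below 0. *Rps28* was named after its values were seen.

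**Figure D4:**
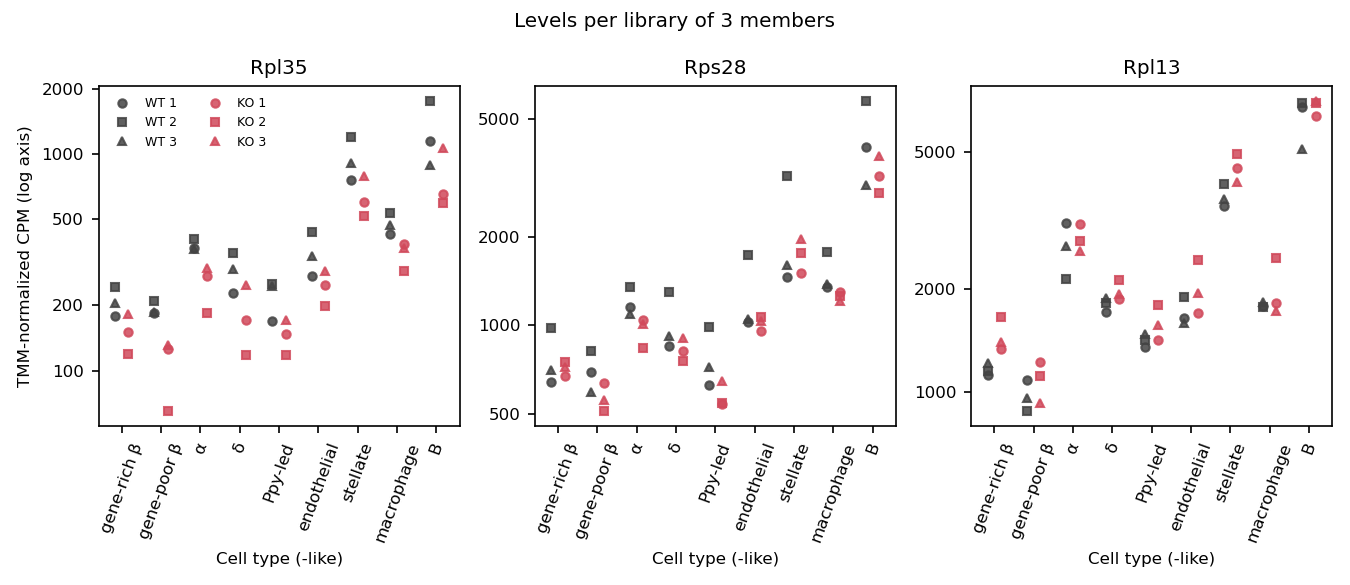
TMM-normalized CPM on a log axis (y) of *Rpl35*, *Rps28*, and *Rpl13* in the 6 libraries across 9 cell types (x), with WT gray, KO red, and the shape giving the library number. WT library 2 is highest for *Rpl35* and *Rps28* in every type and KO library 2 lowest for *Rpl35* in every type, while *Rpl13* shows KO above WT without overlap in gene-rich β cell–like and stellate-like cells.

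*Gm10076*, which is no member and is annotated as a lincRNA (GRCm38, GENCODE vM21, chr14:105681828-105682211, plus strand), went with *Rpl35*. In gene-rich β cell–like cells it stood at 120, 250, and 169 CPM in WT and at 84.6, 82.0, and 113 CPM in KO. The groups did not overlap, and the log2 fold change was −0.95 (SE 0.244, edgeR FDR 0.912, and 0.0418 with the replicate block). It was below 0 in all 9 types, between −1.30 and −0.95, and was called in gene-poor β cell–like cells (FDR 0.0424), where 0.0491% of genes were called, and in *Ppy*-led cells (FDR 0.000735), where 0.0113% were. With the replicate block it was also called in endothelial-like cells (−1.01, FDR 0.0345), where that fit called 0.0425% of genes. WT library 2 was again the highest in 9 of 9 types.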

How the data were processed

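Single-cell RNA-Seq (Chromium 3′) was run on islets of 3 WT and 3 KO mice, with each library counted as 1 mouse. Per the labels the authors processed reads with Cell Ranger 6.0.2 against mm10, and what they deposited are UMI counts per gene and barcode without normalization. Barcodes with under 500 genes, over 10% mitochondrially encoded UMIs, or a Scrublet doublet call (0.8% per 1000 barcodes where its own threshold marked under 0.5%) were left out, which kept 25261 of 43445. Cells were clustered (2000 variable genes, 30 components, Leiden resolution 1; scanpy 1.11.5). A cluster was named where at least 3 markers were in 10% of cells at 1.5-fold, its median was at least 3500 UMIs, and no other type's markers or hormone led it. These limits were set after the clusters were seen. Gene-poor clusters had under 70% of the median genes of β cell–like cells at 5000 UMIs. Free RNA was not subtracted.

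UMIs were summed per library and type. Genes were tested where, in WT or in KO, over 15% of cells held a UMI, with edgeR 4.0.16 (quasi-likelihood, TMM, Benjamini-Hochberg over all genes tested), in R 4.3.3 with limma 3.58.1 and DESeq2 1.42.0 for other fits, and CPM were computed from the deposited counts. SEs of log2 fold changes were derived from the F statistics. Types needed 10 cells in every library. Shares were compared by 2-sided exact permutation. The edgeR step was tested on simulated data. The named genes were the members called, the 5 lowest p in each direction, members fixed by role, the 8 most variable across types, the missed ribosomal proteins with *Gm10076*, and the 5 genes most like the member share. Some of them are not reported here. Members and lists were chosen with earlier results of these data known. Sex and cage of the mice were not used. The p-values measure the spread between these libraries, in which mouse and library preparation cannot be told apart.

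Same-numbered libraries deviated together in gene-rich β cell–like cells (r = 0.586, 0.518, and 0.194 over 9599 genes), and every such r was above 0.1 in gene-poor β cell–like, α cell–like, and endothelial-like cells too, so the block was read as a pairing in these types. The sample titles give replicate numbers and no pairing, so this reading rests on the same counts that were tested.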

Additional observations from a re-analysis of the deposited data

How the results depend on the processing

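No member was called in gene-rich β cell–like cells under any alternative run. The share difference there stayed above 0, with 0.317 to 0.468 points when a library was left out, and 0.393 points (exact sign-flip p = 0.25) with the replicate block, where the pairs differed by 0.395, 0.427, and 0.357. The other values were 1.03 without hormone genes, 0.453 with *Ywhaz*-positive KO cells kept, and 0.424 with gene-poor cells added. The replicate block raised the calls over all genes from 1 to 23 in these cells and from 3 to 50 in gene-poor β cell–like cells.

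Counts of called members moved from 0 elsewhere. With the replicate block 1 member each, *Rpl35*, was called in gene-poor β cell–like, δ cell–like (FDR 0.0341), and *Ppy*-led cells (FDR 8.31e-05), where 50, 5, and 13 of all genes were called. Same-numbered libraries had r of 0.315, 0.215, and 0.0941 in δ cell–like cells and of 0.0825, 0.142, and 0.0192 in *Ppy*-led cells. These were all above 0 but not all above 0.1, so the block was not read as a pairing in these 2 types. *Gm10076* was called there too with the block (FDR 3.97e-05 in δ cell–like cells). With no filter 1 (*Rpl35*) was called in gene-poor β cell–like, α cell–like, and *Ppy*-led cells, where 34, 15, and 8 of all genes were called, and 2 in δ cell–like cells (*Rpl35* and *Rps29*), where 25 were. Leaving out a library gave 0 to 1 in *Ppy*-led cells, with *Rpl35* called without WT library 1, where 2 of all genes were. The cause was not tested.

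Share differences turned sign in 5 types whose groups overlapped. Leaving out a library gave −0.748 to 0.189 points in α cell–like cells, a range of −0.0849 to 0.0968 points for δ cell–like cells, −0.295 to 0.0772 in *Ppy*-led cells, −0.198 to 0.563 in macrophage-like cells, and −3.58 to 0.274 in B cell–like cells. Without hormone genes the values were 0.0635 in δ cell–like, 0.144 in *Ppy*-led, and 0.378 in B cell–like cells, with no doublet calls 0.00159 in δ cell–like and 0.138 in *Ppy*-led cells, and as a mean over cells 0.217 in *Ppy*-led cells. In gene-poor β cell–like, endothelial-like, and stellate cell–like cells the difference stayed above 0 under every alternative run, but in stellate cell–like cells it was 0.0848 at Leiden resolution 2 and 0.124 with no doublet calls, against 1.41. Without a library, the median log2 fold change of members ran from 0.0300 to 0.0791 in δ cell–like, 0.0138 to 0.135 in *Ppy*-led, 0.0156 to 0.214 in endothelial-like, 0.109 to 0.246 in stellate cell–like, and 0.0595 to 0.219 in macrophage-like cells.

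In gene-rich β cell–like cells, log2 fold changes near 0 turned sign. Without a library, *Rps28* ranged from −0.23 to 0.082, *Rps29* from −0.31 to 0.025, *Rpl38* from −0.26 to 0.061, *Rps27* from −0.14 to 0.0078, and *Rpl41* from −0.083 to 0.060. *Rpl41* was 0.00025 with no doublet calls and 0.0071 with *Ywhaz*-positive KO cells kept. The divisions by depth, cluster, and *Ywhaz* UMI were chosen after seeing the data. With 3 mice per genotype a share cannot reach an exact p below 0.1.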
